A study of Mus musculus with 6 samples.

Results

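Signals of 10 macrophage and microglia genes were compared between micro-dissected cochlear sensory epithelia (CSE) of mice at postnatal day 3 (P3) and of adult mice aged 8 weeks, with 3 arrays a stage. The genes were Lyz2, Chil3, Mrc1, Cd163, Cd68, Csf1r, Cx3cr1, Adgre1, Aif1 and Tyrobp. They are known markers and were chosen with earlier results of these data known. Every probe set that the array annotation gives to one of them alone was taken, which made 13 of the 45101 probe sets on the array and 10 of the 18193 genes that it names alone. All animals were Swiss Webster mice, for which no treatment or transgene is named, and each array held RNA of CSE pooled from 20 mice, so differences between single animals were not measured. Otic capsule, modiolus, spiral ligament and stria vascularis had been dissected away. A stage was represented by 3 separate dissections, and the array number limits the precision. In such bulk samples, fewer cells of a type and less RNA per cell cannot be told apart.

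Macrophages are tissue-resident phagocytes, and microglia are their counterpart in the central nervous system. Both depend on the receptor Csf1r for survival, and both engulf debris and present antigen. In the mammalian cochlea such cells lie among the fibrocytes of the lateral wall, in the spiral ganglion and in the basilar membrane below the sensory epithelium. Monocytes and granulocytes are blood-borne relatives made in the bone marrow, and they share part of the same gene programme.

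A probe set is a group of short oligonucleotides on the array that together measure 1 transcript, and its MAS5.0 signal is an intensity on a linear scale. Background was set on each array from 83 probe sets of smell, pheromone and bitter taste receptors, whose 90th percentile was the level to exceed. Of all probe sets 29036 exceeded it on 3 or more arrays and were tested. A probe set was called when the limma adjusted p was under 0.05 over all 29036 and the stages differed by at least 2-fold. Background levels lay between 6.29 and 34.5. P3 replicate 1 stood apart, with the highest background and 3' to 5' ratios of 82.0 for Gapdh and 50.5 for beta-actin, against at most 2.07 and 4.18 on the other arrays. Values without it are given where it ends a call, turns a direction or moves a named value by over 1.5 times. Of the hair cell markers, Myo7a was above background on all arrays and Slc26a5, the motor protein of outer hair cells, on none of them, while Sox2, Gjb2 and Gjb6 of supporting cells were above it on every array. None of 5 measured hair cell genes was called, and of 7 supporting cell genes 1 was called higher in the adult (Gjb6) and 3 at P3 (Tecta, Sox2 and Otog). Without P3 replicate 1, 2 supporting cell genes were called higher in the adult, and Otog was called in 1 of the 6 fits that left out an array.

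Of the 13 member probe sets 12 were tested, and 10 of them, from 8 genes, were above background on all 6 arrays. The other tested ones were Chil3, which passed through its adult arrays alone, and Cd163. Among markers more specific to microglia, Tmem119 was above background on all arrays and P2ry12 on 5, whereas both probe sets of Trem2 were above it on 1 P3 array and on no adult array. All 10 genes are also known from macrophages outside the brain.

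Of 12 tested probe sets, 2 were called higher in the adult (Lyz2 and Chil3) and 1 at P3 (Mrc1), and 9 were not called. Over all tested probe sets 3.39% were called in the adult direction and 3.87% in the P3 direction. The median log2 fold change, adult minus P3 throughout, was 0.05 for the 12 probe sets and 0.04 for all 29036. All 3 adult arrays lay above all 3 P3 arrays for 4 of the 12 probe sets, against 15.5% of those tested, and all P3 arrays lay above all adult arrays for 1, against 15.6%.

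**Figure D1:**
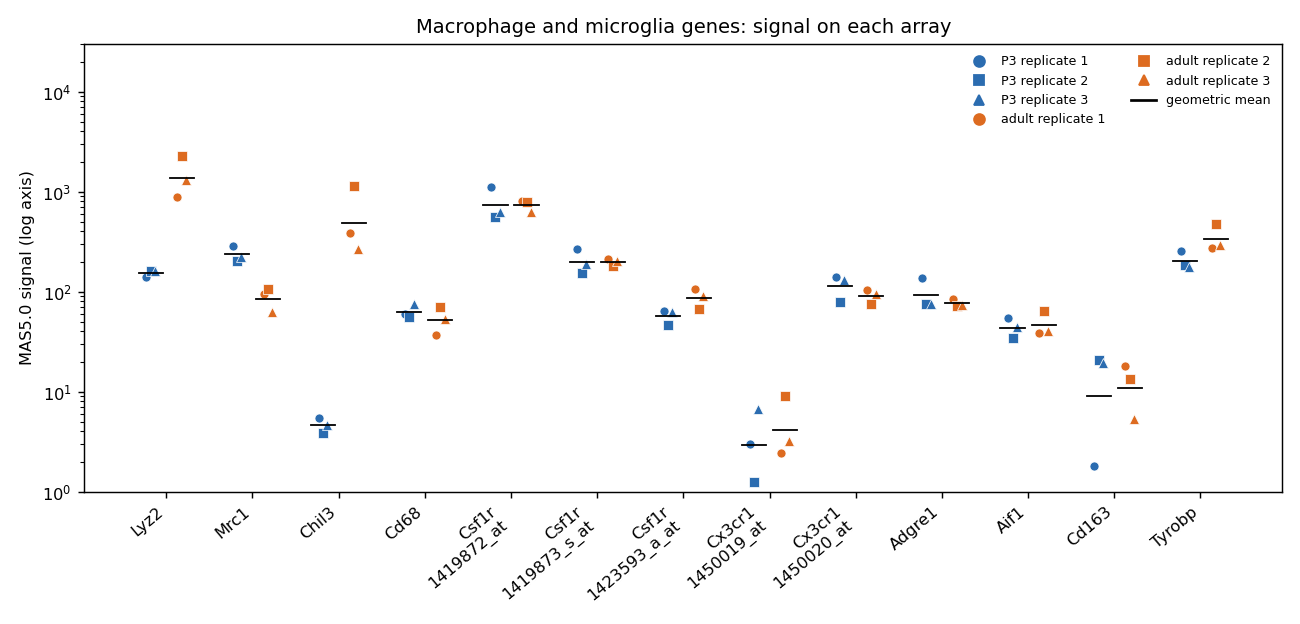
MAS5.0 signal (vertical axis, log scale) of the 13 member probe sets on each of the 6 arrays, with P3 arrays in blue, adult arrays in orange, 1 marker shape per replicate number and a black line at the geometric mean of a stage. The stages part clearly for Lyz2, Chil3 and Mrc1, and for most other members the 2 sets of points overlap.

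The sequences upstream of the called genes are shown here because Lyz2 and Chil3 each have a near copy beside them. Upstream sequence is not part of the transcript, so its likeness does not tell which copy a probe set measures. Probe and transcript sequences were not compared. Lyz2 on chromosome 10 lies 5522 bases from Lyz1, a lysozyme gene of the gut, and Chil3 on chromosome 3 lies 33926 bases from Chil4. The windows are the 250 bases before the annotated start in RefSeq (GRCm38.p6), written 5′ to 3′ on the strand of the gene. Capitals mark the letters AGGAAGT on either strand, a core that ETS factors such as PU.1, the lineage factor of macrophages, are known to bind. The Lyz2 window is chr10:117282273-117282522 and that of Lyz1 chr10:117292869-117293118, both on the minus strand. Those of Chil3 and Chil4 are chr3:106167565-106167814 and chr3:106219480-106219729, also on the minus strand, and that of Mrc1 is chr2:14229164-14229413 on the plus strand.
Lyz2: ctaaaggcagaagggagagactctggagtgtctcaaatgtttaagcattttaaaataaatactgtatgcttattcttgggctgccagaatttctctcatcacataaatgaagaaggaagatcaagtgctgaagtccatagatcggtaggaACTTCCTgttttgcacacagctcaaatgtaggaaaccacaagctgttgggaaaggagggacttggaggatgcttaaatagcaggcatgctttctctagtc
Lyz1: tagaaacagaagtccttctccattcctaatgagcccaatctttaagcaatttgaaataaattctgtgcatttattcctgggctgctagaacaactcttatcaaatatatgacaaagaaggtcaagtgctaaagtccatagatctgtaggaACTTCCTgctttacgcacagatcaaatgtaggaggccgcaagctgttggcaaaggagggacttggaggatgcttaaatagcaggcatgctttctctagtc
Chil3: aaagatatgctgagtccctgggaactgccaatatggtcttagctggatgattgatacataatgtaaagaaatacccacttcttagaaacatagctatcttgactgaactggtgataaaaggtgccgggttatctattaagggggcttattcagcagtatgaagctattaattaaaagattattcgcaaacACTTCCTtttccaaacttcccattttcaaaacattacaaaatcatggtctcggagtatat
Chil4: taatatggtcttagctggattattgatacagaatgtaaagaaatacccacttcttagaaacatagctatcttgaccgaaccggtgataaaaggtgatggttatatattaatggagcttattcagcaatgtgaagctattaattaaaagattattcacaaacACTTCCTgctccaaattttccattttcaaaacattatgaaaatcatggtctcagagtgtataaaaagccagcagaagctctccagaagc
Mrc1: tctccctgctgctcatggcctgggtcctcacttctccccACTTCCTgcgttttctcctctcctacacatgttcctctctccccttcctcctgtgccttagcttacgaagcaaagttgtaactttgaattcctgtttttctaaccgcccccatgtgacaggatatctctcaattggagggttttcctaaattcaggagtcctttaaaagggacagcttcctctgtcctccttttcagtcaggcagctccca

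In a global alignment, 78.8% of columns were identical between the windows of Lyz2 and Lyz1 and 72.4% between those of Chil3 and Chil4, against 47.8% between Lyz2 and Mrc1, which are unrelated. The letters AGGAAGT began 100 bases before the start in both lysozyme genes, 60 bases before it in Chil3, 89 in Chil4 and 211 in Mrc1. They were picked after the sequences had been seen, and 3 of the 7 members with a window held them, against 7.69% of 32851 windows. The letters GAGGAA, which share AGGAA with them and can overlap them, were found in 3 members (Mrc1, Cd68 and Aif1), against 23.3% of windows. Of these 2 motifs Cx3cr1 and Cd163 held neither. Such matches are letters in a window and were not tested as binding sites. Windows of Tyrobp, Adgre1 and Csf1r are not shown.

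Lyz2, the lysozyme that macrophages, monocytes and granulocytes secrete against bacteria, had signals of 141, 161 and 161 on P3 replicates 1, 2 and 3 and of 876, 2251 and 1310.1 on adult replicates 1, 2 and 3. The P3 arrays lay close together, the adult arrays were all higher, and adult replicate 2 was the highest. The means were 154 ± 11.5 at P3 and 1479 ± 703 in the adult (SD, n = 3), and it rose with a log2 fold change of 3.16 (limma adjusted p = 0.00186, SE 0.33). The call held in all 15 other settings, with log2 fold changes between 2.80 and 3.48, and the value was 3.09 without P3 replicate 1.

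Chil3, a chitinase-like lectin that alternatively activated macrophages and neutrophil precursors secrete, had signals of 5.41, 3.86 and 4.68 at P3 and of 386, 1134 and 266 in the adult. It was above background on no P3 array and on every adult array. Measured against the background level of the P3 arrays the adult signal was at least 38.8-fold higher, and the fitted log2 fold change was 6.73 (limma adjusted p = 0.000686, SE 0.54). The fitted value depends on P3 signals below background, and it was 6.12 without adult replicate 2, the array of the highest signal, 5.28 with signals floored at background and 4.76 with the mean background added. As Chil3 could enter the test only through the adult arrays, its direction was fixed by the filter.

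Other probe sets of these gene pairs differed in their signals. The 2 Lyz1 probe sets with the suffix _x_at, which marks oligonucleotides that may also match other sequences, rose like Lyz2. At the brighter of them signals were 293, 303 and 316 at P3 and 1708, 3747 and 2019 in the adult, a log2 fold change of 2.95 (limma adjusted p = 0.00181, SE 0.31). At the other the log2 fold change was 3.70 (SE 0.39). The third Lyz1 probe set, with the plain suffix _at, was above background on 1 adult array alone, with signals of 1.88, 4.78 and 3.62 at P3 and 4.76, 10.2 and 0.603 in the adult. The lysozyme rise was thus measured at Lyz2 and at the Lyz1 probe sets with that suffix, and not at the Lyz1 probe set without it. Whether the former match Lyz2, and whether the latter detects Lyz1, was not tested. The same pattern was seen for the chitinase-like pair. A probe set is given to both Chil4 and Chil3 by the annotation. Its signals were 24.7, 6.51 and 3.85 at P3 and 102, 582 and 83.3 in the adult. Taken from the P3 background level, the rise was 13.6-fold or more (limma adjusted p = 0.0234 for the fitted signals). This shared probe set was above background on no P3 array and on every adult array, so its direction was fixed by the filter, as for Chil3. The probe set of Chil4 alone was above background on no array.

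**Figure D2:**
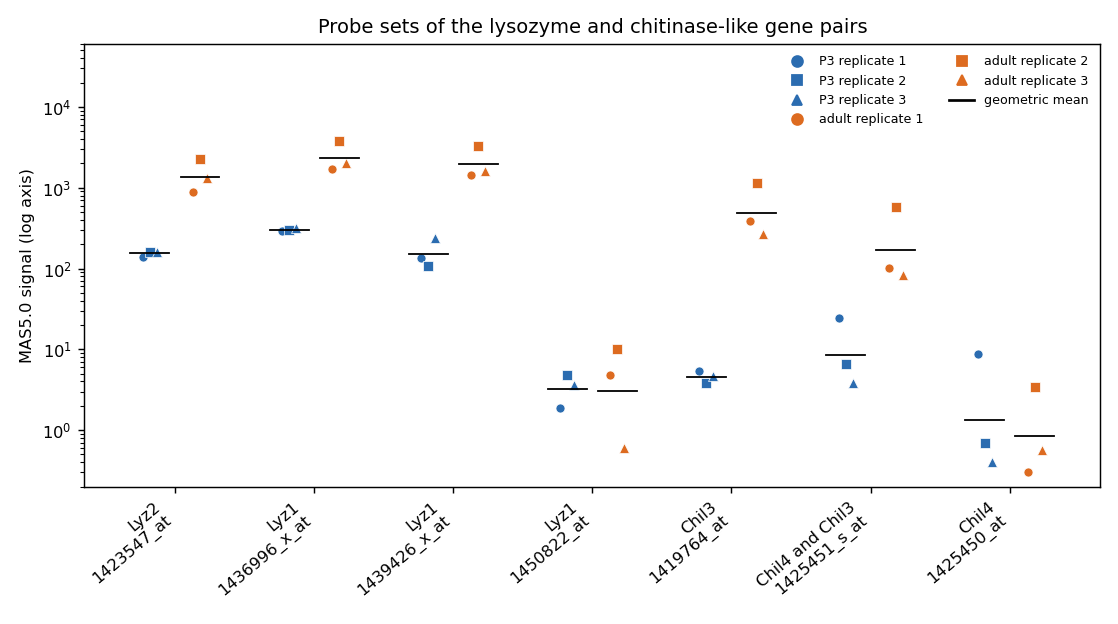
MAS5.0 signal (vertical axis, log scale) of 4 lysozyme and 3 chitinase-like probe sets on each of the 6 arrays (P3 blue, adult orange, black line at the geometric mean of a stage). Adult points lie far above P3 points for Lyz2, for both Lyz1 probe sets with the suffix _x_at, for Chil3 and for the probe set shared with Chil4, while the third Lyz1 probe set and that of Chil4 alone stay near the bottom at both stages.

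Most genes of a list named for granulocyte precursors rose with Lyz2 and Chil3, which cells of the granulocyte lineage also express. The list also holds genes of mature neutrophils and of eosinophils, so it does not tell precursors from mature cells. This list, like the others, was chosen with earlier results of these data known. Ngp, Ctsg, Lcn2 and Prg2 are also among the adult genes that the paper selected from these arrays. The count and median below therefore describe the list and are no independent test. Of 14 measured genes of the 16 in that list, 10 were called in the adult direction and none in the other, with a median log2 fold change of 4.75. Over all 13743 genes tested, each at its brightest probe set, 4.58% were called in the adult direction and 5.54% in the P3 direction, with a median of -0.04. Of the 10, 4 were above background on no P3 array, so that they entered the test through the adult arrays alone and their direction was fixed by the filter, as for Chil3, and 6 were above it on at least 1 P3 array. With genes of that kind at their lower bound the median was 3.90. The summed signal of the list was 287 to 1090.2 on the P3 arrays and 4096 to 18517 on the adult arrays, highest on adult replicate 2, where Lyz2 and Chil3 were highest too. S100a8, a calcium-binding protein of neutrophils, had signals of 107, 42.0 and 52.2 at P3 and 4231, 5956 and 1590.0 in the adult, and every adult array was above every P3 array. S100a9, its partner, and Ngp and Mpo, proteins of neutrophil granules, were called as well, as were Elane, Ctsg, Lcn2 and Prg2, granule proteins of neutrophils or eosinophils and the 4 with no P3 array above background. Without P3 replicate 1 the log2 fold changes were 6.17 (from 5.54) for S100a9, 6.50 (from 5.72) for Ngp and 7.21 (from 6.28) for Lcn2, and 13 genes of the list were called. Mmp9, a gelatinase of neutrophils and osteoclasts and the brightest gene of the list that was not called, had signals of 599.9, 147 and 154 at P3 and 62.9, 108 and 35.4 in the adult, with every adult array below every P3 array. Its log2 fold change was -1.94 (SE 0.60, adjusted p = 0.0893 by limma), and -1.28 without P3 replicate 1. Of 5 erythroid genes 2 were called higher in the adult, Slc4a1 and Hemgn, the latter above background on no P3 array. That count was 4 without P3 replicate 1 and 1 without any other single array, since Slc4a1 was then lost. The summed erythroid signal ran from 55.2 to 160 at P3 and from 213 to 952 in the adult. The part of granulocytes, of their precursors and of erythroid cells in the rise of Lyz2 and Chil3 was not tested.

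Mrc1, the mannose receptor of resident macrophages and of some sinusoidal and lymphatic endothelium, ran the other way. Its signals were 289.5, 203 and 224 at P3 and 95.3, 105 and 62.1 in the adult, so that every adult array was below every P3 array. The means were 239 ± 45.2 at P3 and 87.6 ± 22.6 in the adult (SD, n = 3), and it fell with a log2 fold change of -1.47 (limma adjusted p = 0.0197, SE 0.29). The call was lost when P3 replicate 2, P3 replicate 3 or adult replicate 3 was left out (limma adjusted p = 0.0521, 0.0683 and 0.0893), without the intensity trend (0.0674) and with arrays scaled to the same median (0.121), while the log2 fold change stayed between -1.67 and -1.24 over all 15 settings. Without P3 replicate 1 it was -1.32 and remained called.

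Cd163, the haemoglobin scavenger receptor that resident macrophages often carry with Mrc1, was near background. Its signals were 1.81, 20.8 and 19.5 at P3 and 18.2, 13.3 and 5.28 in the adult. It was above background on 2 arrays of each stage and the stages overlapped. The log2 fold change of 0.26 had an SE of 1.08 and a 95% interval from -2.20 to 2.73, so this fit did not settle a direction. Without P3 replicate 1, where it was lowest, the log2 fold change was -0.89 (limma adjusted p = 0.391). With arrays weighted by their quality it was -1.59 (limma adjusted p = 0.0357) and was called higher at P3. Both values lie in the other direction from the reported one.

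Csf1r, the receptor for the survival factors Csf1 and Il34, was measured by 3 probe sets. At the brightest signals were 1110.3, 559.7 and 622 at P3 and 803, 790.2 and 621 in the adult, and the adult values lay inside the range of the P3 values. The log2 fold change was 0.01 with a 95% interval from -0.67 to 0.69 (limma adjusted p = 0.990). A like value of 0.00 (95% interval from -0.59 to 0.60) was found at the next brightest. At the dimmest, with signals of 64.7, 46.3 and 62.7 at P3 and 105, 66.9 and 90.5 in the adult, every adult array was above every P3 array, but the log2 fold change of 0.59 (SE 0.31) was not called (limma adjusted p = 0.299). None of the 3 intervals for this receptor reached a change of more than 1.30 on the log2 scale.

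Tyrobp, the adaptor that passes signals from Trem2 and other activating receptors of myeloid cells, had signals of 254, 183 and 179 at P3 and 272, 475 and 290.4 in the adult. Its adult arrays were all above its P3 arrays, adult replicate 2 most of all. The log2 fold change of 0.72 (SE 0.28) had an unadjusted p of 0.0320 and a limma adjusted p of 0.165. Over the 15 other settings it lay between 0.47 and 0.89, under the 2-fold that a call needs, so none of them could call it. With array quality weights its limma adjusted p was 0.00439.

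Surface and cytoplasmic markers that define macrophages in tissue sections showed no called change. Adgre1, an adhesion receptor and the classical surface antigen of mouse macrophages, had signals of 137, 76.1 and 75.4 at P3 and 85.4, 71.4 and 73.0 in the adult, and its log2 fold change was -0.27 (SE 0.32). Apart from the high value on P3 replicate 1, all its arrays were within a narrow range. Aif1, the calcium-binding protein Iba1, had signals of 54.2, 34.8 and 44.6 at P3 and 38.4, 64.6 and 40.4 in the adult, and its log2 fold change was 0.08 (95% interval from -0.77 to 0.94). Cd68, a glycoprotein of lysosomes, had signals of 59.9, 56.2 and 75.0 at P3 and 37.0, 69.8 and 53.3 in the adult, and its log2 fold change was -0.29 (95% interval from -1.09 to 0.50). Both of the latter overlapped between the stages.

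Cx3cr1, the fractalkine receptor by which macrophages and microglia sense neurons and epithelia, was measured by its brighter probe set with signals of 142, 79.1 and 132 at P3 and 103, 74.55 and 93.9 in the adult. The stages overlapped, and the log2 fold change was -0.34 (95% interval from -1.05 to 0.36, limma adjusted p = 0.550). Its dimmer probe set had signals of 1.26 to 6.76 at P3 and 2.44 to 8.99 in the adult, was above background on 1 P3 array and was not tested.

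The highest array of a stage was often the same one across members. Adult replicate 2 was the highest adult array for 6 of the 12 tested probe sets (Lyz2, Chil3, Mrc1, Cd68, Aif1 and Tyrobp), adult replicate 1 for the other 6 and adult replicate 3 for none. Over all tested probe sets these shares were 30.9%, 40.5% and 28.6%. P3 replicate 1 was the highest P3 array for 9 of 12 member probe sets, against 45.4% of all. Without that array the log2 fold change was 0.89 for Tyrobp (limma adjusted p = 0.0898), 0.31 for Csf1r at its brightest probe set, 0.01 for Adgre1, 0.24 for Aif1, -0.33 for Cd68 and -0.19 for Cx3cr1, and none of them was called.

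**Figure D3:**
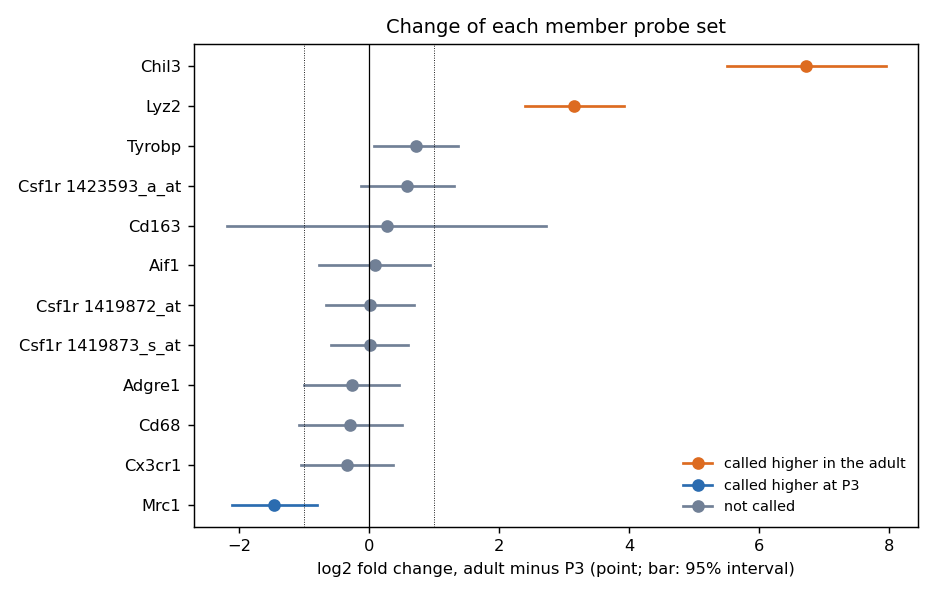
Log2 fold change (horizontal axis, adult minus P3) of the 12 tested member probe sets with its 95% interval from the limma fit, coloured by call, with dotted lines at a 2-fold change. Chil3 and Lyz2 lie to the right of 2 and Mrc1 to the left of -1, while the other 9 probe sets lie between -0.34 and 0.72, Cd163 with the widest interval, and the Chil3 value rests on P3 signals below background.

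The ligands of these receptors and the transcription factors of the lineage were described next, as 14 measured genes of a list of 16. Of them 3 were called in the adult direction and none in the other, against 4.58% and 5.54% of all genes tested. Their median log2 fold change was 0.92, against -0.04 over all genes. It was 0.86 with genes above background on no P3 array at their lower bound. Cx3cl1, the ligand of Cx3cr1 that neurons and epithelia display, had signals of 53.3, 39.5 and 36.8 at P3 and 102, 109 and 165 in the adult, and rose by 1.52 in log2 (limma adjusted p = 0.0264, SE 0.32). Cebpb, a transcription factor of myeloid and many other cells, rose by 1.15 (SE 0.27). Csf3r, the receptor for the granulocyte growth factor, was above background on no P3 array and its adult signal was at least 2.03-fold higher (limma adjusted p = 0.0329), so its direction too was fixed by the filter. Cebpb was not called without P3 replicate 1 (limma adjusted p = 0.0503).

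The 2 ligands of Csf1r were not called. Csf1 had signals of 73.8, 66.5 and 104 at P3 and 104, 103 and 96.7 in the adult, with overlap between the stages (log2 fold change 0.34, SE 0.28). Il34 had signals of 37.8, 19.7 and 29.8 at P3 and 51.5, 89.3 and 68.5 in the adult, with every adult array above every P3 array (log2 fold change 1.27, SE 0.40, limma adjusted p = 0.0950). Without P3 replicate 1 Il34 was called higher in the adult (log2 fold change 1.49, limma adjusted p = 0.0418). Spi1, which encodes PU.1, overlapped between the stages with a log2 fold change of -0.12 (SE 0.50), and one of 0.19 (SE 0.44) without P3 replicate 1. Irf8, its partner in monocytes and microglia, had a log2 fold change of 1.23 (limma adjusted p = 0.164, SE 0.48). Ccr2, the chemokine receptor of inflammatory monocytes, was above background on 1 P3 array and 2 adult arrays. The count of 3 was 0 when any one of P3 replicates 2 and 3 and adult replicates 2 and 3 was left out, and 0 with arrays scaled to the same median.

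Among 22 measured genes of a list of 24 further macrophage genes, 6 were called in the adult direction and none in the other, with a median log2 fold change of 1.09 against -0.04 over all genes. Cybb, the catalytic subunit of the phagocyte oxidase, had signals of 40.3, 23.8 and 27.7 at P3 and 128, 263 and 124 in the adult, and rose by 2.43 in log2 (limma adjusted p = 0.00924, SE 0.39). Mertk, a receptor for the uptake of dying cells that epithelia also carry, had signals of 87.1, 130.4 and 112 at P3 and 329, 300.2 and 383 in the adult, and rose by 1.63 (SE 0.24). For both genes the lowest adult array was well above the highest P3 array. Ptprc, the CD45 antigen of all white blood cells, rose by 1.92 (SE 0.47), Cd14, a receptor for bacterial lipopolysaccharide, by 1.77 (SE 0.34), Mpeg1, a pore-forming protein of phagocytes, by 1.56 (SE 0.33), and Ctss, a cathepsin of antigen-presenting cells, by 1.32 (SE 0.22). Adult replicate 2 was the highest adult array for 15 of the 22 genes, among them Ptprc, Cybb, Cd14 and Mpeg1, and Ctss and Mertk were highest on adult replicate 3.

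Of the 16 genes of that list that were not called, the brightest were Lgmn, Gpnmb and C1qa. Lgmn, a lysosomal protease, had a log2 fold change of 0.09 (SE 0.28), and one of -0.18 (SE 0.22) without P3 replicate 1. Gpnmb, a glycoprotein of lipid-laden macrophages and of pigment cells, had signals of 129.7, 116 and 157 at P3 and 89.0, 422 and 628 in the adult and overlapped between the stages. C1qa, a chain of the first complement component, had signals of 5.39, 165 and 230.0 at P3 and 367, 363 and 343 in the adult, higher on every adult array than on any P3 array and far lower on P3 replicate 1 than elsewhere (log2 fold change 2.60, limma adjusted p = 0.235). Without that array its log2 fold change was 0.88 (limma adjusted p = 0.0481), under 2-fold. The count of 6 was 2 without P3 replicate 2 or 3, 3 when adult replicate 2 was left out and 1 when adult replicate 3 was, and it was 1 with arrays scaled to the same median. With any single array left out, Cybb was called every time and Mertk in 5 of 6 fits.

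Genes of resident tissue macrophages gave no call in either direction, with 8 measured of 12, a median log2 fold change of 0.02 (-0.24 without P3 replicate 1), and 2 genes at an unadjusted p under 0.05. Maf, a transcription factor of resident macrophages and of other tissues, was the brightest, with a log2 fold change of 1.02 (limma adjusted p = 0.0656, SE 0.28). Pf4, a chemokine of platelets and resident macrophages, and F13a1, a clotting factor subunit, had log2 fold changes of 0.35 (SE 0.51) and -0.30 (SE 0.36). Lyve1, a hyaluronan receptor of lymphatic vessels and of resident macrophages that also carry Mrc1, is named after its values were seen. It had signals of 158, 69.7 and 107 at P3 and 53.1, 37.6 and 17.4 in the adult, so that like Mrc1 every adult array was below every P3 array, and its log2 fold change of -1.69 (SE 0.49) was not called (limma adjusted p = 0.0748).

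Microglial genes gave no call either, with 9 measured of 12, a median of 0.07 (-0.05 without P3 replicate 1), and 3 genes at an unadjusted p under 0.05. The brightest were Olfml3, a secreted matrix protein, Tmem119, a membrane protein of microglia, and Sall1, a transcription factor of microglia and other tissues, with log2 fold changes of -0.78 (SE 0.25), 0.37 (SE 0.30) and -0.90 (SE 0.41). Fcrls, a receptor-like protein, and Siglech, a sialic acid-binding receptor that signals through Tyrobp, are named after their values were seen, since their stages did not overlap and lay in opposite directions. Fcrls had signals of 112, 70.0 and 103 at P3 and 51.6, 27.7 and 32.96 in the adult (log2 fold change -1.36, SE 0.37, limma adjusted p = 0.0591). Siglech had signals of 1.28, 10.8 and 3.29 at P3 and 25.0, 40.5 and 23.2 in the adult and was above background on 1 P3 array (log2 fold change 3.00, SE 0.89, limma adjusted p = 0.0810), with 2.27 when P3 replicate 1 was left out.

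Partners of Tyrobp and genes of signalling in white blood cells were measured for 10 genes of a list of 16, and none was called. All 10 had a log2 fold change above 0, and their median was 0.93, against -0.04 over all genes. Fcer1g, which is also in the list of further macrophage genes, was at 0.03 (SE 0.29). Trem3, a receptor that signals through Tyrobp, had signals of 1.90, 9.47 and 3.85 at P3 and 24.2, 59.9 and 20.3 in the adult (log2 fold change 2.91, SE 0.82, limma adjusted p = 0.0695). It was above background on 1 P3 array. Plcg2 and Syk, enzymes downstream of the adaptor, had log2 fold changes of 1.05 (SE 0.37) and 1.47 (SE 1.00). At an unadjusted p under 0.05, 2 of the 10 genes differed. Several of these values rest on P3 replicate 1. Without it the median was 0.48, the log2 fold change was 0.37 for Syk and 0.25 (from 1.26) for Lcp2, an adaptor of the same pathway, and Plcg2 was called higher in the adult (limma adjusted p = 0.0181).

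**Figure D4:**
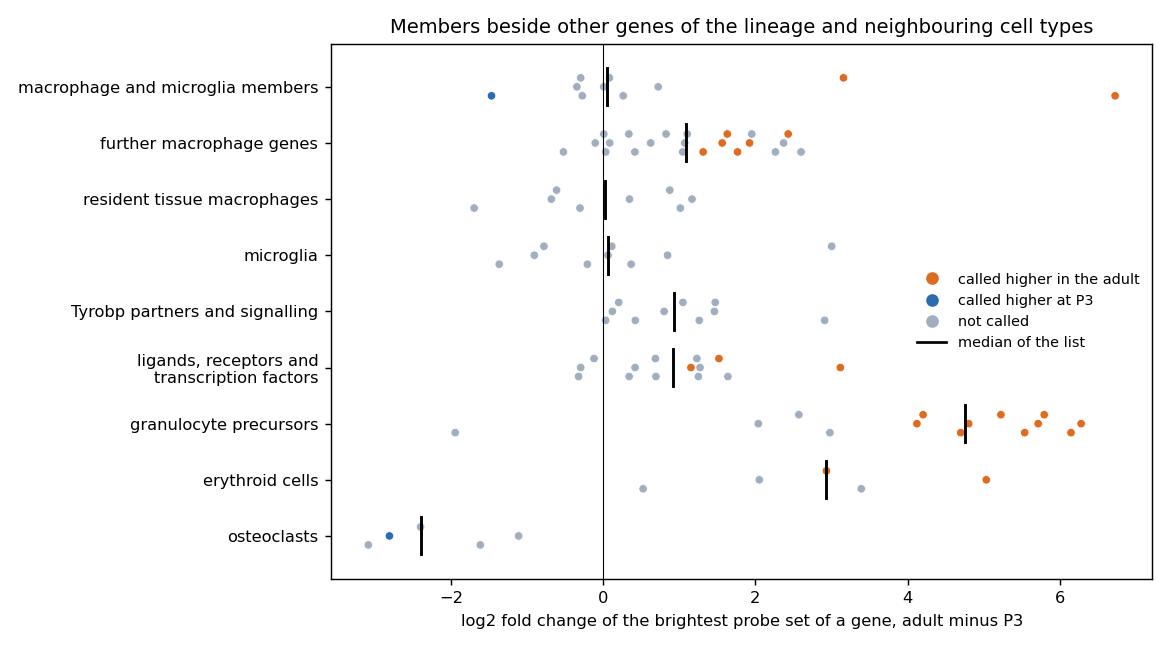
Log2 fold change (horizontal axis, adult minus P3) of each measured gene at its brightest probe set, 1 row per gene list, with orange points called higher in the adult, blue points called higher at P3, grey points not called and a black line at the median of the list. The medians of the members, of the resident macrophage and of the microglial genes lie between 0.02 and 0.07, that of further macrophage genes at 1.09 and that of granulocyte precursors at 4.75.

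Among relatives of the members by sequence, 7 of 12 were measured. Over all genes tested 4.58% were called in the adult direction and 5.54% in the P3 direction. Of the 7 relatives 3 were called higher in the adult. Beside Lyz1 these were Aif1l, a homologue of Aif1 found in many tissues, with a log2 fold change of 1.71 (SE 0.36), and Mrc2, a collagen receptor of the mannose receptor family found on fibroblasts, with one of 1.07 (SE 0.25). Mrc2 had signals of 183, 147 and 187 at P3 and 315, 313 and 471 in the adult, so it was higher on every adult array where Mrc1 was lower on every one. Pla2r1, another receptor of that family, had a log2 fold change of -1.47 (limma adjusted p = 0.0939, SE 0.46). Chil1, a relative of Chil3, had one of 1.47 (limma adjusted p = 0.11, SE 0.49), with every adult array above every P3 array. Without P3 replicate 1 Chil1 was called higher in the adult (log2 fold change 1.95, limma adjusted p = 0.0179). Chit1 and Adgre5 were not called, with log2 fold changes of -1.05 (SE 0.64) and -0.47 (SE 0.25). The count of 3 was 1, that of Lyz1, with P3 replicate 2, P3 replicate 3, adult replicate 2 or adult replicate 3 left out. It was 4 without P3 replicate 1. The Lyz1 call was made at a probe set with the suffix _x_at, whose match to Lyz2 was not tested.

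Other cell types were described by further lists, beside 4.58% of all genes tested called in the adult direction and 5.54% in the P3 direction. Osteoclasts, which resorb bone and arise from the macrophage lineage, gave 1 call of 5 measured genes, at P3. Ctsk, the collagen-cleaving cathepsin of osteoclasts, fell by 2.81 in log2 (limma adjusted p = 0.00932, SE 0.45), and the summed signal of the list was 732 to 1430 at P3 and 113 to 417 in the adult. The count of 1 was 0 without adult replicate 3 (limma adjusted p = 0.0562 for Ctsk) and 4 without adult replicate 2 or with arrays weighted by their quality. The part of osteoclasts in the lower adult signal of Mrc1 was not tested. Of 6 measured genes of monocytes and alternative activation, Plac8, a small protein of white blood cells, was called higher in the adult (log2 fold change 2.52, SE 0.60), and Fn1 and Fabp5, a matrix protein and a fatty acid carrier that many other cells make, were called higher at P3. None of these 3 calls held without P3 replicate 2, without P3 replicate 3, without adult replicate 2 or without adult replicate 3, that of Plac8 was also lost without adult replicate 1 and that of Fabp5 without P3 replicate 1. Arg1, the arginase of alternatively activated macrophages, was above background on no array. No gene of lymphocytes (6 measured) or mast cells (2 measured) was called, and at an unadjusted p under 0.05 the counts were 1 and 0. Summed signals ran from 32.8 to 135 at P3 and from 74.7 to 177 in the adult for lymphocytes.

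**Figure D5:**
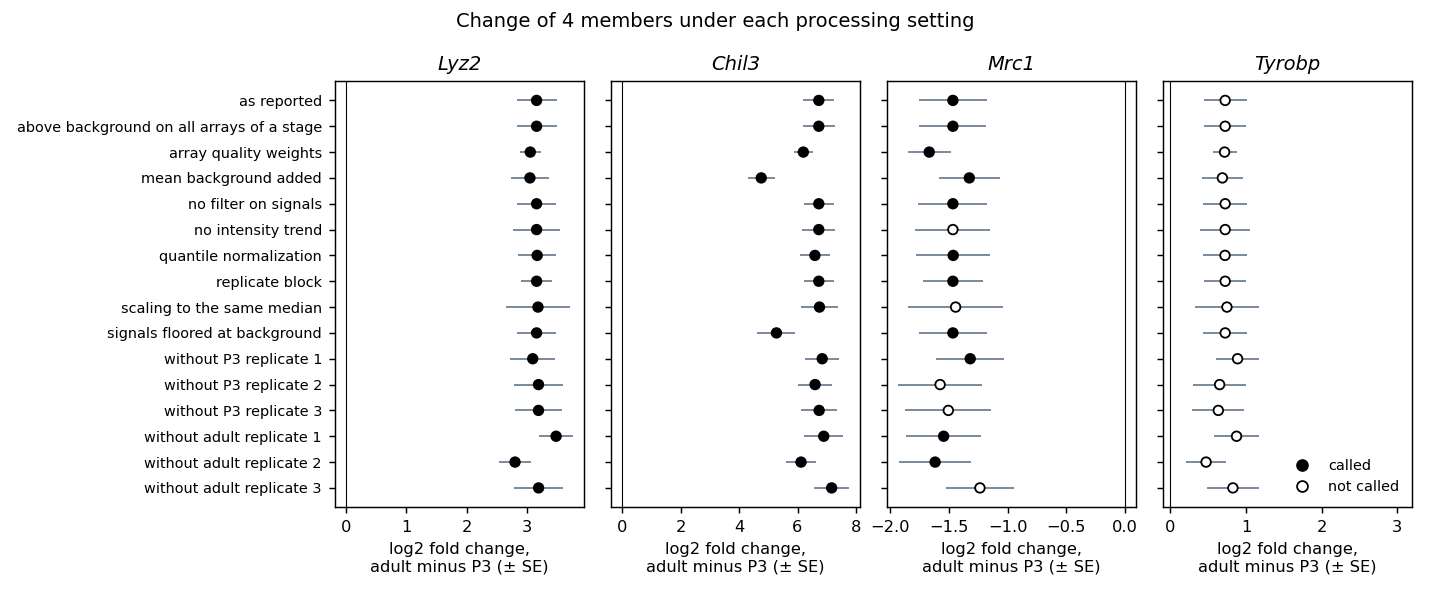
Log2 fold change (horizontal axes, each with its own range, adult minus P3, bars of 1 SE) of Lyz2, Chil3, Mrc1 and Tyrobp as reported and in 15 other settings (vertical axis), with filled points for called values. Lyz2 and Chil3 are called in every row, Mrc1 in 11 of 16 and Tyrobp, whose values all stay under 2-fold, in none, and no value crosses 0.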

How the data were processed

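RNA of pooled CSE was hybridised to Affymetrix Mouse Genome 430 2.0 arrays, 3 per stage. The deposited values are linear intensities (MAS5.0 signals), made and scaled by the authors with GCOS (version 1.2 in the submitters' processing notes), and were used without further scaling. Stages were taken from the sample labels. Log2 signals of the 29036 probe sets above background on 3 or more arrays were fitted with limma 3.58.1 in R 4.3.3 (lmFit, eBayes with trend, no covariate beside stage), with Benjamini-Hochberg adjustment over all of them. The fit was tested on simulated data. If no array of the lower stage exceeded background, its signals were raised to the background level and the fold is given as "at least". That raised level is a limit of detection and not a measured signal. The methods' test (SAM) was replaced by limma.

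Genes were named from the platform annotation, updated in 2016, which gives 1 gene to 34945 probe sets, several to 932 and none to the rest, apart from 64 controls. Promoter sequences are from RefSeq (GRCm38.p6). The members and 14 further gene lists were chosen with earlier results of these data known. Of 178 listed genes 162 had a probe set, and a listed gene was represented by its brightest tested probe set. The text names all members, in each list the called genes (up to 8) and up to 3 of the brightest not called, and some relatives, ligands, receptors, partners or transcription factors of a member. Alternatives were other scalings (same median, quantile), a filter on all arrays of a stage or none, background added or used as a floor, array quality weights, no trend, the replicate number as a block, and leaving out each array. For the list counts, averaging the probe sets of a gene was tried as well. Nothing shows whether array pools share a litter or day, and p-values measure the spread between these pools.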

Additional observations from a re-analysis of the deposited data

How the results depend on the processing

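Lyz2 and Chil3 were called in all 15 other settings and Mrc1 in 10. Array quality weights gave 4411 adult and 3182 P3 calls over all probe sets (984 and 1125 as reported). With them calls were 2 for members at P3, 1 and 1 (adult, P3) for resident macrophages and 1 and 2 for microglia. They were 7 (adult) for ligands, receptors and transcription factors, 2 (adult) for Tyrobp partners, 4 and 1 for relatives and 13 and 1 for granulocyte precursors. Further macrophage genes had 9 adult calls, and Cd163 turned to -1.59. Without the intensity trend (414 and 485 in all) calls were 0 for members at P3 and, in the adult, 3 for further macrophage genes, 1 for ligands and 1 for relatives. With arrays scaled to the same median (280 and 284 in all) these 4 counts were 0, 1, 0 and 1. With background as a floor, or with a gene's probe sets averaged, resident macrophages and microglia had 1 call each at P3, and with that average ligands had 1 in the adult. With the mean background added, microglia had 1 in the adult.

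Same-numbered arrays of the stages deviated together only weakly (r = 0.182, 0.213 and 0.0762), though each array correlated best with its own number. With the replicate block, 1331 and 1318 probe sets were called, resident macrophages had 1 call in each direction, microglia 1 at P3 and Tyrobp partners 1 in the adult, and the calls of the members did not change.

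Leaving out single arrays gave 2 member calls in the adult each time and 0 to 1 at P3. Adult calls were 1 to 7 for further macrophage genes, 0 for resident macrophages and microglia, 0 to 3 for ligands, 0 to 1 for Tyrobp partners, 1 to 4 for relatives and 9 to 13 for granulocyte precursors, and P3 calls were 0 for these lists apart from 0 to 1 for microglia. Over all probe sets, calls ran from 234 and 342 (without adult replicate 3) to 1399 and 1440 (without P3 replicate 1). The precision is limited by 3 arrays a stage, signals near background (Cd163, Chil3 at P3) have no firm level, and a change under 2-fold was not called by definition.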
